A study of Mus musculus and Homo sapiens with 14 samples.

Results

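Expression of heat shock chaperones was followed in 2 mouse cell lines that were grown alone or shared medium with a second line. The 10 genes are Hspa1a, Hspa1b, Hspa8, Hsph1, Hsp90aa1, Dnajb1, Hspb1, Hspb8, Cryab and Bag3, out of 35288 genes listed for each line, and all 10 were found by their symbols. Hspa1a and Hspa1b were also summed. The genes were chosen by an earlier reading of the TPM of these same libraries, in which Hspa1a, Hspa1b and Hsph1 stood out in Oli-neu with D341 against Oli-neu alone. Their values in the libraries of Oli-neu with D341 are therefore a description and carry no p-value.

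The 5 culture conditions described had 2 biological replicates each, per the labels, sequenced as 1 library each and called library 1 and library 2 after the number in their labels. They are Oli-neu with D341, Oli-neu with MB1, MB1 with Oli-neu, Oli-neu alone and MB1 alone. Oli-neu is a mouse oligodendrocytic line that the labels class as oligodendrocyte precursor cells. MB1 is a tumour line of the Sonic hedgehog (SHH) class of medulloblastoma, taken at postnatal day 12 from Atoh1-cre:SmoM2 mice, in which Cre made under Atoh1 control switches on an active form of the hedgehog receptor component Smoothened in granule neuron precursors. D341 is a human line of Group 3 medulloblastoma, and its own libraries are not used here. All cultures, those of lines grown alone included, contained EGF and bFGF at 20 ng/mL each and the supplements B-27 and N-2. In co-culture the lines were separated by an insert of 30 mm whose membrane has pores of 0.4 µm. The length of co-culture and the number of cells are not given in the sources used here. Each line is 1 culture source, so the 2 libraries of a condition measure the spread between cultures of that line.

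The heat shock response is the set of genes switched on when proteins unfold. The transcription factor HSF1 is held inactive by chaperones, is released when unfolded proteins occupy them, and binds heat shock elements, repeated GAA units in alternating orientation, in the promoters of chaperone genes. HSP70 proteins such as Hspa1a, Hspa1b and the constitutive Hspa8 bind exposed stretches of a client in a cycle that J-domain partners (Dnajb1) start and exchange factors (Hsph1, Bag3) end, HSP90 proteins (Hsp90aa1) act on clients near their final fold, and small heat shock proteins (Hspb1, Hspb8, Cryab) hold unfolded clients without using ATP. Cryab, alpha B-crystallin, is abundant in the lens and heart and is known in oligodendrocytes and astrocytes.

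The promoters of 7 of the 10 genes were available from RefSeq on build GRCm38.p6, as windows of 250 bases before and 50 after a start site. They are shown because Hspa1a, Hspa1b and Hsph1 stood out in Oli-neu with D341 and Hspb1 in MB1 with Oli-neu. The part before the start site is printed 5′ to 3′ on the strand of the gene, and capitals mark each match to a pair of heat shock units, spelled GAANNTTC or TTCNNGAA. Both spellings read the same on the opposite strand, so 1 scan covers both strands.
Hspa1a, chr17:34972157-34972406, minus strand: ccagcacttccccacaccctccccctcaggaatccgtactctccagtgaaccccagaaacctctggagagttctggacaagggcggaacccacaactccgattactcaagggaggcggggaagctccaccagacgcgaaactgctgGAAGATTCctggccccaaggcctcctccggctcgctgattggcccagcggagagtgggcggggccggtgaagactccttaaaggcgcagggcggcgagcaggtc
Hspa1b, chr17:34959239-34959488, minus strand: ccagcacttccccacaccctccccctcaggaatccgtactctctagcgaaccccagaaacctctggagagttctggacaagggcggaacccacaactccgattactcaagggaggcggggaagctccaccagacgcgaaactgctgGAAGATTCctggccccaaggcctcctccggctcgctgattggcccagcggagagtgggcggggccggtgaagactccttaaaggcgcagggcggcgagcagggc
Hsph1, chr5:149636316-149636565, minus strand: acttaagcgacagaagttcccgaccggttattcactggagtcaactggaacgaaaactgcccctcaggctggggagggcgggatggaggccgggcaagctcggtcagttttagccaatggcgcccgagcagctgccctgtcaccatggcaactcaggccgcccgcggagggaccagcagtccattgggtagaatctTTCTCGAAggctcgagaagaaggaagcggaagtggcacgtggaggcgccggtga
Hspb1, chr5:135887669-135887918, plus strand: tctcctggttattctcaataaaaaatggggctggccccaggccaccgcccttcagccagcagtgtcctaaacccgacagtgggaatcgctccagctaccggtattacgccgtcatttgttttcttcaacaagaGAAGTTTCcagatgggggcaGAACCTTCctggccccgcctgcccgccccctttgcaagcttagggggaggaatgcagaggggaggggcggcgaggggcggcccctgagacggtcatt

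Hspa1a and Hspa1b carried the same match, GAAGATTC, with its first base 104 bases before the start site, and their 300-base windows were identical at 296 positions. Hspb1 carried a pair of matches, 117 and 97 bases before the start. Hsph1 carried 3 matches, of which the last 2 overlap after the start site and form a run of 3 units, that is, a 2-unit match followed by any 2 bases and 1 further unit, GAA or TTC, in alternating orientation, shown here with 6 bases on either side.
Hsph1, chr5:149636282-149636306, minus strand: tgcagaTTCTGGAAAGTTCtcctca

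Bag3 and Hspb8 each had 1 match, both after the start site, and Dnajb1 had 0 in either of its windows. Hspa8, Hsp90aa1 and Cryab had no window in the table used. A match to 2 units was found in 15.1% of all 32851 promoter windows of this length and a match to 3 units in 0.603%, so a 2-unit match alone is common. A match is a stretch of letters and no binding was measured.

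The values are TPM, a transcript abundance unit, which scales a gene's reads by transcript length and each library to the same total, and so allows levels of different genes to be set side by side. Across the 10 libraries between 11596 and 12338 genes reached 1 TPM, and libraries of a condition correlated across genes with r between 0.944 and 0.972, over genes that are not independent replicates. Pseudogenes held 25.2% to 38.2% of TPM and mitochondrially encoded genes 1.93% to 9.56%. The number of reads per library is unknown. Of 7 oligodendrocyte lineage markers, 0 were under 1 TPM in Oli-neu alone and 1 in MB1 alone. That one, Sox10, was at 184 ± 18.0 TPM in Oli-neu alone and 0.674 ± 0.294 TPM in MB1 alone, but Olig1 was at 177 ± 14.7 TPM in Oli-neu alone and 744 ± 126 TPM in MB1 alone, and Olig2 at 70.4 ± 7.99 TPM in Oli-neu alone and 237 ± 13.2 TPM in MB1 alone (SD, n = 2 each). The 7 markers summed to 603 and 675 TPM in Oli-neu alone and to 937 and 1098 TPM in MB1 alone, so their sum was higher in the tumour line. Of 7 granule precursor and hedgehog markers, 3 were under 1 TPM in MB1 alone and 5 in Oli-neu alone. Atoh1 and Gli1 were among the 3, which goes against what the origin of the line would give. Zic1, Zic2, Pax6 and Ptch1 went the other way. They were at 74.0, 25.4, 24.1 and 16.3 TPM in MB1 alone, against 0.00235, 7.82, 0.565 and 5.15 TPM in Oli-neu alone. The 7 markers summed to 148 and 132 TPM in MB1 alone and to 11.6 and 15.8 TPM in Oli-neu alone. All 4 microglia markers were under 1 TPM in each of the 5 conditions.

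The first comparison asks which genes of Oli-neu differ when it shares medium with D341. Both inducible HSP70 genes were 4.43 (Hspa1a) and 3.93 (Hspa1b) times as abundant in Oli-neu with D341 as in Oli-neu alone, Hsph1 was 1.60 times as abundant, and the constitutive chaperones Hspa8 and Hsp90aa1 had nearly the same mean in both conditions. Of 12280 genes tested, 0 passed an adjusted p of 0.05 in either direction (background 0%), by limma on log2(TPM + 1) with Benjamini-Hochberg adjustment, so 0 of the 7 chaperones tested passed. At an unadjusted p under 0.05, 198 genes (1.61%) were higher and 1486 (12.1%) lower. Hspb1, Hspb8 and Bag3 did not reach 1 TPM in 2 Oli-neu libraries and were not tested.

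Hspa1a, at chr17:34969190-34972156 on the minus strand, had 12.0 and 10.96 TPM in Oli-neu with D341, against 2.15 and 3.03 TPM in Oli-neu alone. Hspa1b, at chr17:34956436-34959238 and 9951 bp away, had 20.8 and 22.1 TPM in Oli-neu with D341, against 4.17 and 6.74 TPM in Oli-neu alone. Both libraries with D341 lay well above both libraries alone for each gene. The sum of the pair was 32.9 ± 0.143 TPM in Oli-neu with D341 and 8.05 ± 2.43 TPM in Oli-neu alone (SD, n = 2 each), a ratio of 4.09 and a log2 fold change of 1.93 (SE 0.26). The difference was larger than the spread between libraries, and on the log2 scale it was 2.21 for library 1 and 1.66 for library 2. In these bulk samples a change in the number of cells that express a gene and a change in its RNA per cell cannot be told apart.

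Hsph1, the HSP110 protein that reloads HSP70 with ATP, lies at chr5:149614287-149636376 on the minus strand. It had 31.0 and 36.9 TPM in Oli-neu with D341, against 20.8 and 21.6 TPM in Oli-neu alone. The groups did not overlap, and the log2 fold change was 0.65 (SE 0.13). Dnajb1, the J-domain partner that starts the HSP70 cycle, at chr8:83608193-83612653 on the plus strand, had 13.0 and 14.3 TPM in Oli-neu with D341, against 11.9 and 11.6 TPM in Oli-neu alone. Its groups did not overlap either, but the difference was small, a log2 fold change of 0.20 (SE 0.10).

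Hspa8, the constitutive HSP70 of the cytosol, was the most abundant of the 10 genes in every library. It had 1494 and 1364 TPM in Oli-neu with D341, against 1358 and 1369 TPM in Oli-neu alone. Hsp90aa1, the inducible cytosolic HSP90, had 461 and 302 TPM in Oli-neu with D341, against 402 and 337 TPM in Oli-neu alone. For both genes 1 library with D341 lay inside or under the range of the libraries alone. Their log2 fold changes were 0.07 (SE 0.15) for Hspa8 and 0.02 (SE 0.27) for Hsp90aa1.

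Cryab, at chr9:50751325-50756636 on the plus strand, had 119.6 and 88.3 TPM in Oli-neu with D341, against 92.1 and 65.8 TPM in Oli-neu alone. The groups overlapped, with library 2 of the co-culture under library 1 of the monoculture. Within each number the co-culture was higher, by 0.37 on the log2 scale for the libraries numbered 1 and 0.42 for those numbered 2, and the log2 fold change was 0.40 (SE 0.26). Leaving out 1 library at a time moved this value between 0.16 and 0.64. The other small heat shock proteins among the 10 genes, and Bag3, were close to 0 in Oli-neu. Hspb1 lay between 0 and 0.322 TPM, Hspb8 between 0 and 0.0459 TPM and Bag3 between 0.106 and 0.218 TPM over the 6 Oli-neu libraries, so no fold change is given for them. Hspb6, a small heat shock protein that is not one of the 10 and is named after its values were seen, was at 13.5 to 19.1 TPM over the same libraries.

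All 7 tested chaperones thus had a higher mean in Oli-neu with D341, where 24.1% of all genes tested did. Their median log2 fold change was 0.40, and that of all genes was -0.16. In 4 of them, Hspa1a, Hspa1b, Hsph1 and Dnajb1, both libraries with D341 lay above both libraries alone, where 7.12% of all genes tested did so, and in 0 of them both lay below, where 44% of all genes did. These counts rest partly on the values that chose the genes and support nothing. When the columns were rescaled by median ratios, the median over all genes was 0.00 and the chaperones' median was 0.58, with all 7 still higher.

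**Figure D1:**
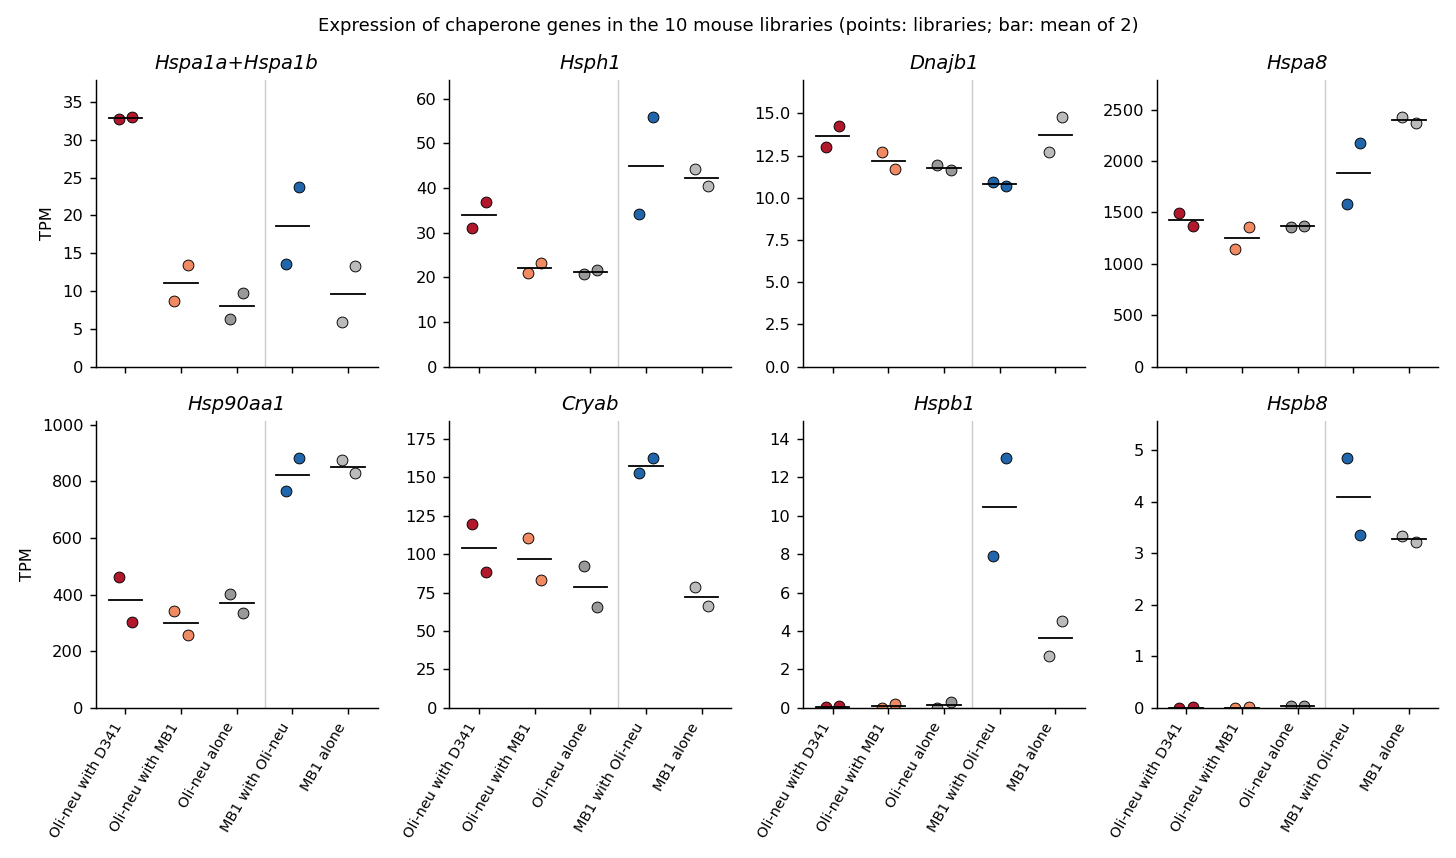
TPM of the Hspa1a and Hspa1b sum and of 7 further chaperone genes in each of the 10 mouse libraries, 1 point per library, with a bar at the mean of the 2 libraries of a condition and a separate vertical axis from 0 for each gene. The Hspa1 sum is at 32.8 and 33.0 TPM in Oli-neu with D341, above all other libraries, and Cryab is at 153 and 162 TPM in MB1 with Oli-neu.

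The second comparison asks the same of Oli-neu beside MB1. It shares the libraries of Oli-neu alone with the first comparison, so the values are set side by side and no likeness between the 2 is drawn. The HSP70 pair was a little higher in mean beside MB1, and Hspa1a was the one of the 7 chaperones tested whose groups did not overlap. Hspa1a had 3.36 and 4.46 TPM in Oli-neu with MB1, against 2.15 and 3.03 TPM in Oli-neu alone, without overlap. Its log2 fold change was 0.45 (SE 0.18, limma adjusted p = 0.809). Hspa1b had 5.36 and 8.93 TPM in Oli-neu with MB1, against 4.17 and 6.74 TPM in Oli-neu alone, and the groups overlapped. Within each number it was higher with MB1, by 0.30 on the log2 scale for library 1 and 0.36 for library 2. The sum was 11.1 ± 3.30 TPM in Oli-neu with MB1 and 8.05 ± 2.43 TPM in Oli-neu alone (SD, n = 2 each), a log2 fold change of 0.41 (SE 0.26, limma adjusted p = 0.887), and 0.41 and 0.42 within numbers 1 and 2.

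The co-chaperones and constitutive chaperones had overlapping groups. Hsph1 had 21.04 and 23.3 TPM in Oli-neu with MB1, against 20.8 and 21.6 TPM alone. Dnajb1 had 12.7 and 11.7 TPM in Oli-neu with MB1, against 11.9 and 11.6 TPM alone. Hspa8 had 1140 and 1361 TPM in Oli-neu with MB1, against 1358 and 1369 TPM alone, a log2 fold change of -0.13 (SE 0.15). Library 1 with MB1 was the lowest of the 6 Oli-neu libraries for Hspa8. With its near copies, described further on, added, Hspa8 had 1381 and 1568 TPM in Oli-neu with MB1, against 1616 and 1589 TPM alone, which no longer overlapped, at a ratio of 0.920.

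Hsp90aa1 had 340.6 and 258 TPM in Oli-neu with MB1, against 402 and 337 TPM alone, and its log2 fold change was -0.31 (SE 0.27), with -0.24 within number 1 and -0.38 within number 2. Cryab had 110.3 and 83.1 TPM in Oli-neu with MB1, against 92.1 and 65.8 TPM alone, and its log2 fold change was 0.30 (SE 0.26), with 0.26 within number 1 and 0.33 within number 2. Leaving out 1 library at a time moved the value for Cryab between 0.06 and 0.54. As beside D341, the libraries numbered 1 were above those numbered 2 for Cryab in each of the 3 Oli-neu conditions. Among 12280 genes 0 passed (background 0%), so 0 of the 7 chaperones did, and 176 genes (1.43%) were higher and 571 (4.65%) lower at an unadjusted p under 0.05, 0 of the 7 among them. Both libraries with MB1 lay above both alone in 1 of 7 chaperones, where 10.1% of all genes did so, and below in 0 of 7, where 24% of all genes did. Of the 7 means, 5 were higher, where 37.4% of all genes were. The median of the 7 was 0.06 against -0.06 over all genes. Because the genes were chosen with earlier results of these data known, these counts support nothing.

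Oli-neu with D341 was also set directly against Oli-neu with MB1, which asks where the same line differs between the 2 co-cultures. The sum of the HSP70 pair was 32.9 ± 0.143 TPM with D341 and 11.1 ± 3.30 TPM with MB1 (SD, n = 2 each), a ratio of 2.98 and a log2 fold change of 1.52 (SE 0.26). For library 1 the log2 difference was 1.80 and for library 2 it was 1.24. Hspa1a differed by a log2 fold change of 1.35 (SE 0.18), Hspa1b by 1.50 (SE 0.29) and Hsph1 by 0.59 (SE 0.13). For all of these both libraries with D341 lay above both with MB1.

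Hspa8 (log2 fold change 0.20, SE 0.15) and Dnajb1 (0.15, SE 0.10) did not overlap between the conditions either, by narrow margins, since Hspa8 had 1364 TPM in the lower library with D341 and 1361 TPM in the higher library with MB1. Hsp90aa1 (0.33, SE 0.27) and Cryab (0.10, SE 0.26) overlapped. All 7 means were higher with D341, where 31.5% of all genes were. In 5 of 7 chaperones both libraries with D341 lay above, where 6.6% of all genes did so, and in 0 both lay below, where 28.8% of all genes did. Like those of the first comparison, these counts rest partly on the values that chose the genes and support nothing. Of 12280 genes 0 passed the adjusted threshold (background 0%), with 97 (0.79%) higher and 533 (4.34%) lower at an unadjusted p under 0.05, so the difference between the 2 co-cultures is a description for each chaperone.

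**Figure D2:**
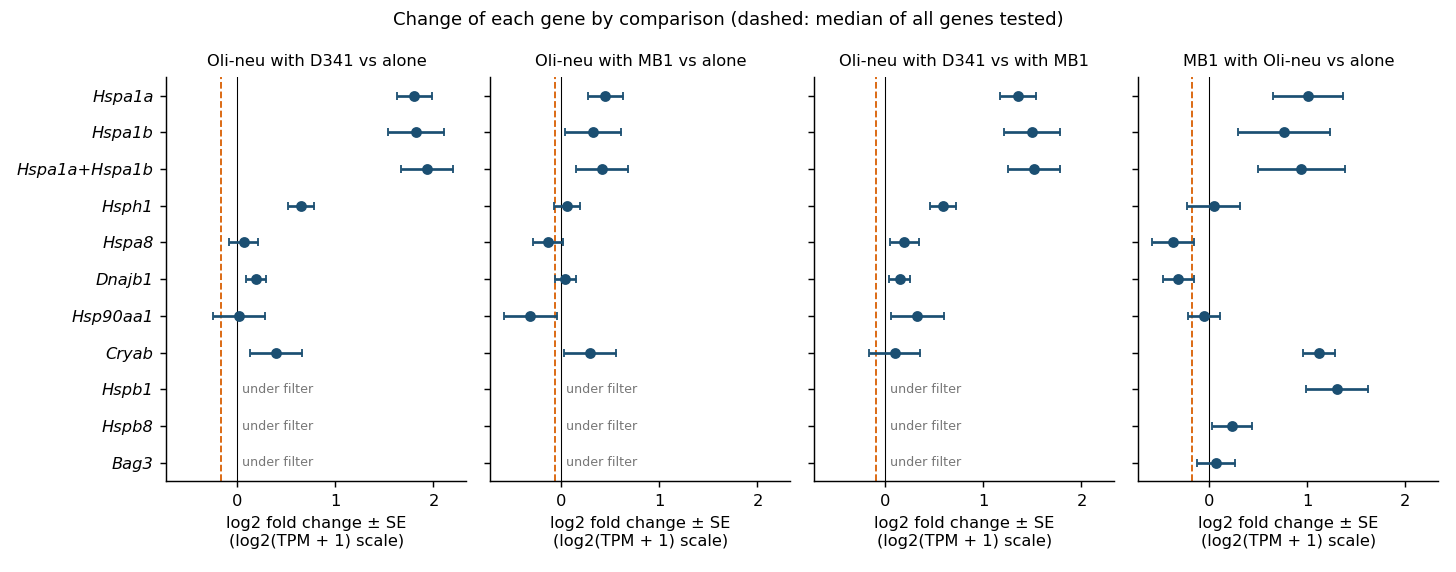
Log2 fold change of each chaperone gene on the log2(TPM + 1) scale in the 4 comparisons, with points at the limma estimate, bars of 1 SE, and a dashed line at the median of all genes tested. The Hspa1a and Hspa1b sum is at 1.93 beside D341 and 0.41 beside MB1, and Hspb1 and Cryab are at 1.30 and 1.12 in MB1 with Oli-neu.

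The last comparison asks what differs in the MB1 tumour cells when they share medium with Oli-neu. Hspb1, Hspa1a and Cryab were at 2.88, 2.30 and 2.18 times their level in MB1 alone, without overlap, though Hspb1 was at 2.02 times with its near copy added. The HSP70 pair was 1.95 times as abundant in mean, and Hspa8 and Dnajb1 were lower. All 10 chaperones were tested and 0 passed, as did 0 of 12407 genes (background 0%), with 375 (3.02%) higher and 1569 (12.6%) lower at an unadjusted p under 0.05. Of the chaperones, Hspa1a, Hspb1 and Cryab were among the 375. Since the genes were chosen with earlier results of these data known, this count supports nothing.

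Cryab had 153 and 162 TPM in MB1 with Oli-neu, against 78.3 and 66.1 TPM in MB1 alone. Both co-culture libraries lay far above both monoculture libraries. The mean was 157 ± 6.84 TPM in MB1 with Oli-neu and 72.2 ± 8.63 TPM in MB1 alone (SD, n = 2 each), a log2 fold change of 1.12 (SE 0.16, limma adjusted p = 0.254). For library 1 the log2 difference was 0.95 and for library 2 it was 1.28. The difference was larger than the spread between libraries and did not pass once adjusted over all genes.

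Hspb1, the small heat shock protein HSP25 of mouse, lies at chr5:135887919-135889563 on the plus strand. It had 7.89 and 13.0 TPM in MB1 with Oli-neu, against 2.72 and 4.53 TPM in MB1 alone. The groups did not overlap, and the log2 fold change was 1.30 (SE 0.31, limma adjusted p = 0.282). Hspb8, the partner of Bag3 in chaperone-assisted autophagy, at chr5:116408491-116422864 on the minus strand, had 4.85 and 3.35 TPM in MB1 with Oli-neu, against 3.34 and 3.23 TPM in MB1 alone. Its groups were apart by a narrow margin, and the log2 fold change was 0.24 (SE 0.21). Bag3, which links HSP70 to small heat shock proteins and lies at chr7:128523616-128546981 on the plus strand, had 4.85 and 3.49 TPM in MB1 with Oli-neu, against 3.95 and 3.81 TPM in MB1 alone, and its groups overlapped.

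Hspa1a had 6.41 and 11.7 TPM in MB1 with Oli-neu, against 2.88 and 5.02 TPM in MB1 alone, without overlap. Hspa1b had 7.21 and 12.0 TPM in MB1 with Oli-neu, against 2.97 and 8.30 TPM in MB1 alone, and the groups overlapped. The sum was 18.7 ± 7.13 TPM in MB1 with Oli-neu and 9.58 ± 5.29 TPM in MB1 alone (SD, n = 2 each). Its libraries, 13.6 and 23.7 TPM in MB1 with Oli-neu against 5.84 and 13.3 TPM in MB1 alone, nearly met, and the log2 fold change was 0.94 (SE 0.44, limma adjusted p = 0.366). In both conditions library 2 held more of the pair than library 1.

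Hspa8 had 1583 and 2176 TPM in MB1 with Oli-neu, against 2426 and 2366 TPM in MB1 alone. Both co-culture libraries lay below, library 1 far more than library 2, with a log2 fold change of -0.37 (SE 0.21). Dnajb1 had 10.9 and 10.7 TPM in MB1 with Oli-neu, against 12.7 and 14.8 TPM in MB1 alone, also without overlap, with a log2 fold change of -0.31 (SE 0.16). Hsph1 had 34.1 and 55.9 TPM in MB1 with Oli-neu, against 44.2 and 40.4 TPM in MB1 alone. Its co-culture libraries lay on either side of the monoculture libraries, so Hsph1 did not follow the HSP70 pair there. Hsp90aa1 had 764 and 881 TPM in MB1 with Oli-neu, against 874 and 831 TPM in MB1 alone, with the co-culture libraries likewise on either side.

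Both MB1 libraries with Oli-neu lay above both alone in 4 of the 10 chaperones, Hspa1a, Hspb1, Hspb8 and Cryab, where 10.9% of all genes tested did so. They lay below in 2 of the 10, Hspa8 and Dnajb1, where 41.5% of all genes did. Of the 10 means 7 were higher, where 29.1% of all genes were. The 10 genes were chosen with earlier results of these data known, so these counts support nothing. The median of the 10 was 0.15 against -0.17 over all genes, and 0.31 against 0.00 after median-ratio scaling, under which Hsp90aa1 had a log2 fold change of 0.14 in place of -0.05. Astrocyte markers, which mark cells that also make Cryab, summed over 4 genes to 59.9 and 68.9 TPM in MB1 with Oli-neu. In MB1 alone they summed to 49.7 and 55.8 TPM, and Aqp4 was under 1 TPM in both conditions. Most of the sum was S100b, at 44.1 ± 1.07 TPM in MB1 with Oli-neu and 38.7 ± 1.12 TPM in MB1 alone (SD, n = 2 each). The same 4 genes summed in mean to 146 TPM in Oli-neu alone, of which S100b held 144 TPM. The sum therefore does not single out astrocytes here. Gfap was at 7.76 ± 2.16 TPM in MB1 with Oli-neu and 3.42 ± 1.06 TPM in MB1 alone (SD, n = 2 each). The part of these cells or states in the Cryab values was not tested.

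The levels of the 10 genes were next set across the lines. The lines have a table each, so this is a description with no test. MB1 lay above Oli-neu in every library for 5 genes, counted without their near copies. Hspa8 had a median of 2271 TPM over 4 MB1 libraries and 1362 TPM over 6 Oli-neu libraries, and Hsp90aa1 a median of 852 TPM in MB1 and 339 TPM in Oli-neu. With its near copies, described further on, added, Hspa8 overlapped between the lines. It then had 1584 TPM in library 1 of MB1 with Oli-neu and 1711 TPM in library 1 of Oli-neu with D341. Hspb1 ran between 2.72 and 13.0 TPM in MB1 and between 0 and 0.322 TPM in Oli-neu, Hspb8 between 3.23 and 4.85 TPM in MB1 and between 0 and 0.0459 TPM in Oli-neu, and Bag3 between 3.49 and 4.85 TPM in MB1 and between 0.106 and 0.218 TPM in Oli-neu. Bag3, Hspb1 and Hspb8 were thus above 1 TPM in every MB1 library and under 1 TPM in every Oli-neu library, whereas Hspb6, at 10.7 to 21.9 TPM in MB1, overlapped between the lines. For Hspa1a, Hspa1b, Hsph1, Dnajb1 and Cryab the ranges of the lines overlapped.

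The order of the conditions differed by gene. For the HSP70 sum, Oli-neu with D341 came first, at 32.9 TPM in mean, followed by MB1 with Oli-neu at 18.7, Oli-neu with MB1 at 11.1, MB1 alone at 9.58 and Oli-neu alone at 8.05 TPM. The libraries of the last 3 conditions overlapped one another, whereas both libraries of Oli-neu with D341 were above all 8 others. For Cryab, MB1 with Oli-neu came first at 157 TPM, followed by Oli-neu with D341 at 104, Oli-neu with MB1 at 96.7, Oli-neu alone at 78.9 and MB1 alone at 72.2 TPM. MB1 with Oli-neu was above all 8 other libraries, and each neighbouring pair among the other conditions overlapped.

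**Figure D3:**
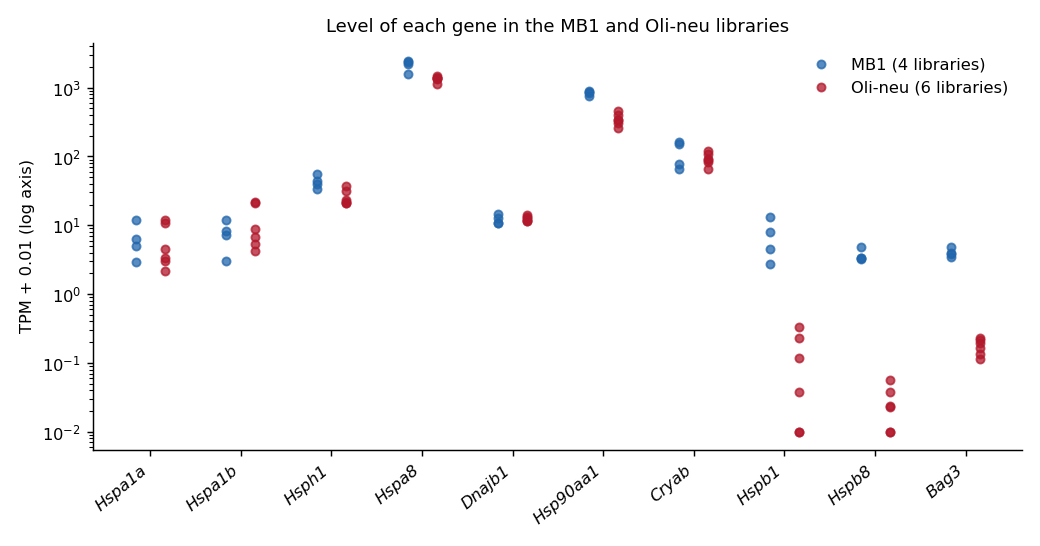
TPM of each chaperone gene in the 4 MB1 libraries (left points) and the 6 Oli-neu libraries (right points), on a log axis to which 0.01 TPM was added so that values of 0 can be drawn. Hspb1, Hspb8 and Bag3 are above 2 TPM in every MB1 library and below 1 TPM in every Oli-neu library, while Hspa1a, Hspa1b, Hsph1, Dnajb1 and Cryab overlap.

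Several of the genes have near copies, which bears on how far their values can be trusted. Among 75-base stretches of their longest protein-coding transcripts, the length of the reads, 55.8% of those of Hspa1b and 54.2% of those of Hspa1a were found whole in a transcript of another gene on the same strand, mostly in each other. Hspa1b took between 61.5% and 69.0% of the pair in Oli-neu and between 50.5% and 62.3% in MB1, and the division between the pair is uncertain. The sum does not depend on it. Hspa8 shared 68.0% of its stretches with 9 pseudogenes, Hsp90aa1 53.1% with 3 pseudogenes and Hspb1 47.3% with the pseudogene Hsp25-ps1, while Hsph1, Dnajb1, Hspb8, Bag3 and Cryab shared 0% on the same strand.

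Some of these copies had levels well above 0. Gm15459, a copy of Hspa8 on chromosome 5, held 125 to 185 TPM in the Oli-neu libraries and 0.271 to 1.86 TPM in the MB1 libraries, and Gm5575, another copy on chromosome 5, held 41.9 to 90.0 TPM in Oli-neu. The 9 pseudogenes of Hspa8 summed in mean to 214 TPM in Oli-neu with D341, 224 TPM in Oli-neu with MB1 and 239 TPM in Oli-neu alone. Gm15459 shared 64.3% of the stretches of Hspa8 and Gm5575 shared 0.690%. Gm15459, Gm5575 and Hsp25-ps1 are shorter than the transcripts they copy, and TPM scales reads by length. Added TPM are thus not added reads, and the sums with copies are approximate. The level of Hspa8 in Oli-neu is uncertain by an amount that is not known. With all its copies added, Hspa8 was at 0.784 times its monoculture level in MB1 with Oli-neu, 1.03 times in Oli-neu with D341 and 0.920 times in Oli-neu with MB1. Hsp25-ps1 was listed at 3.08 TPM in library 2 of MB1 alone and at 0 in all other libraries. With it added, Hspb1 had 7.89 and 13.0 TPM in MB1 with Oli-neu, against 2.72 and 7.60 TPM in MB1 alone, and the ratio was 2.02 in place of 2.88, still without overlap.

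The HSP70 pair has a further neighbour on the opposite strand. Gm20481, annotated as protein-coding at chr17:34969912-34972136, lies inside Hspa1a on the plus strand and shares 14.6% of the stretches of Hspa1a. It was at 0.128 and 25.3 TPM in Oli-neu with D341, against 0 and 5.11 TPM in Oli-neu alone, and at 0 and 8.25 TPM in Oli-neu with MB1. In the tumour line it was at 0.1403 and 0 TPM in MB1 with Oli-neu, against 0 and 9.21 TPM in MB1 alone. It was thus at or near 0 in every library numbered 1, and high in those numbered 2 apart from MB1 with Oli-neu. The kit marks strand, but whether the quantification used it is not given in the sources used here.

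With Gm20481 added, the pair had 32.9 and 58.3 TPM in Oli-neu with D341, against 6.33 and 14.9 TPM in Oli-neu alone, a ratio of 4.30 without overlap. In the tumour line the same sum had 13.8 and 23.7 TPM in MB1 with Oli-neu, against 5.84 and 22.5 TPM in MB1 alone, a ratio of 1.32 with overlap. Adding the testis-type HSP70 gene Hspa1l instead, which shares a few stretches with the pair, also made the MB1 groups overlap, with 13.7 and 23.7 TPM in MB1 with Oli-neu and 5.93 and 14.3 TPM in MB1 alone. The separation of the HSP70 pair in MB1 therefore depends on how such reads are counted, and that in Oli-neu with D341 did not. Cryab overlaps Hspb2 head to head over 1030 bp, and 17.1% of its stretches are found in Hspb2 on the opposite strand. Hspb2 was at 1.24 ± 0.405 TPM in MB1 with Oli-neu and 1.18 ± 0.0138 TPM in MB1 alone (SD, n = 2 each), against Cryab at 157 TPM and 72.2 TPM in the same conditions.

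**Figure D4:**
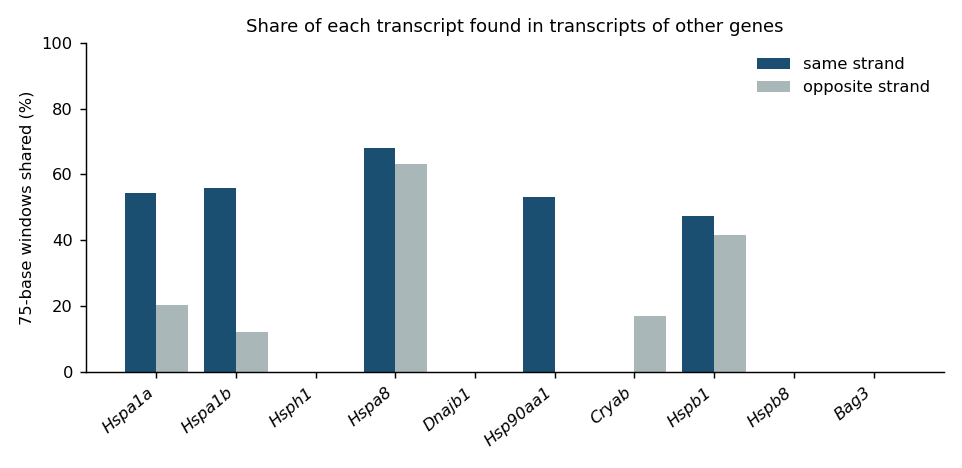
Percentage of the 75-base stretches of each chaperone's longest protein-coding transcript that also occur whole in a transcript of another gene, on the same strand or on the opposite strand. Hspa8 has the highest share at 68.0%, Hspa1a and Hspa1b are at 54.2% and 55.8%, and Hsph1, Dnajb1, Hspb8 and Bag3 are at 0.

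Other genes of protein folding were listed by function, 101 in all, of which 100 were found and 88 could be tested in Oli-neu. In Oli-neu with D341 against Oli-neu alone, 0 of the 88 passed in either direction (background 0%). Their means were higher in 18, where 24.1% of all genes tested had a higher mean, and lower in 70. Their median log2 fold change was -0.15, near the -0.16 of all genes. The 10 chaperones differ from them in that all 7 tested had a higher mean, a contrast that rests on the choice of genes.

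All 7 tested subunits of the TRiC chaperonin, the ring that folds actin and tubulin, had a lower mean in Oli-neu with D341, with a median of -0.34, and 0 passed. Cct8 was at 98.5 ± 0.530 TPM in Oli-neu with D341 and 136 ± 0.811 TPM in Oli-neu alone, and Tcp1 at 175 ± 7.79 TPM in Oli-neu with D341 and 222 ± 7.50 TPM in Oli-neu alone (SD, n = 2 each). After median-ratio scaling all 7 were still lower, with a median of -0.16. HSP90 co-chaperones were lower in 15 of 16 and in 10 of 16 after that scaling. Of all genes tested, 24.1% had a higher mean before the scaling, and 6155 of 12267 after it. Ppid, the cyclophilin partner of HSP90, was at 26.9 ± 1.08 TPM in Oli-neu with D341 and 43.3 ± 0.892 TPM in Oli-neu alone (SD, n = 2 each), a log2 fold change of -0.67 (SE 0.10).

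Mitochondrial chaperones were lower in 9 of 9, and in 6 of 9 after scaling by median ratios. Before that scaling 24.1% of all genes tested were higher in mean. Hspd1, the mitochondrial HSP60, was at 46.8 ± 4.14 TPM in Oli-neu with D341 and 71.8 ± 7.32 TPM in Oli-neu alone (SD, n = 2 each). J-domain co-chaperones were lower in 14 of 15 but higher in 10 of 15 after the scaling, and ER chaperones were higher in 7 of 15 and in 13 of 15 after it, so no direction is given for these lists. Canx, the ER lectin calnexin, was one of the 8 ER chaperones with a lower mean. It was at 206 ± 64.2 TPM in Oli-neu with D341 and 307 ± 35.8 TPM in Oli-neu alone (SD, n = 2 each). Both libraries with D341 lay above both alone in 5 of the 15 ER chaperones, where 7.12% of all genes did so. They lay below in 3 of the 15, where 44% of all genes did. The lists were chosen with earlier results of these data known, so these counts support nothing.

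Bag2, an exchange factor of HSP70, had a log2 fold change of -0.75 (SE 0.23). Hsbp1, a small protein that binds HSF1, was at 262 ± 22.9 TPM in Oli-neu with D341 and 219 ± 2.14 TPM in Oli-neu alone (SD, n = 2 each). Among 10 other genes known as HSF1 targets, 6 had a higher mean in Oli-neu with D341 and 4 a lower one. Of all genes tested, 24.1% had a higher mean there. Ier5, an HSF1 target and cofactor, was at 5.62 ± 0.00364 TPM in Oli-neu with D341 and 6.88 ± 0.0875 TPM in Oli-neu alone (SD, n = 2 each).

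In Oli-neu with MB1, 18 of the 88 had a higher mean and 70 a lower one, and 0 passed. Of all genes tested, 37.4% had a higher mean, and 6134 of 12267 did after median-ratio scaling. All 16 HSP90 genes and co-chaperones and all 7 TRiC subunits were lower in mean, and after median-ratio scaling 15 of the 16 and all 7 still were. Hsf1, the master factor itself, was at 33.0 ± 1.98 TPM in Oli-neu with MB1 and 40.7 ± 1.52 TPM in Oli-neu alone (SD, n = 2 each), a log2 fold change of -0.29.

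In MB1 with Oli-neu against MB1 alone, 90 of the 100 genes were tested and 0 passed, with 29 higher and 61 lower in mean. Of all genes tested, 29.1% were higher in mean. All 7 TRiC subunits were lower in mean, but 3 of 7 were higher after median-ratio scaling. Dnajc13, a J-domain protein of endosomes, was at 28.4 ± 2.51 TPM in MB1 with Oli-neu and 50.3 ± 4.57 TPM in MB1 alone (SD, n = 2 each), a log2 fold change of -0.80 (SE 0.16). Bag2 was at 8.93 ± 0.233 TPM in MB1 with Oli-neu and 15.6 ± 0.580 TPM in MB1 alone (SD, n = 2 each). Hsbp1 was at 298 ± 35.1 TPM in MB1 with Oli-neu and 233 ± 6.11 TPM in MB1 alone (SD, n = 2 each), and 7 of the 10 other HSF1 targets had a higher mean. Hmox1, heme oxygenase, was at 24.0 ± 0.355 TPM in MB1 with Oli-neu and 40.3 ± 13.9 TPM in MB1 alone (SD, n = 2 each).

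**Figure D5:**
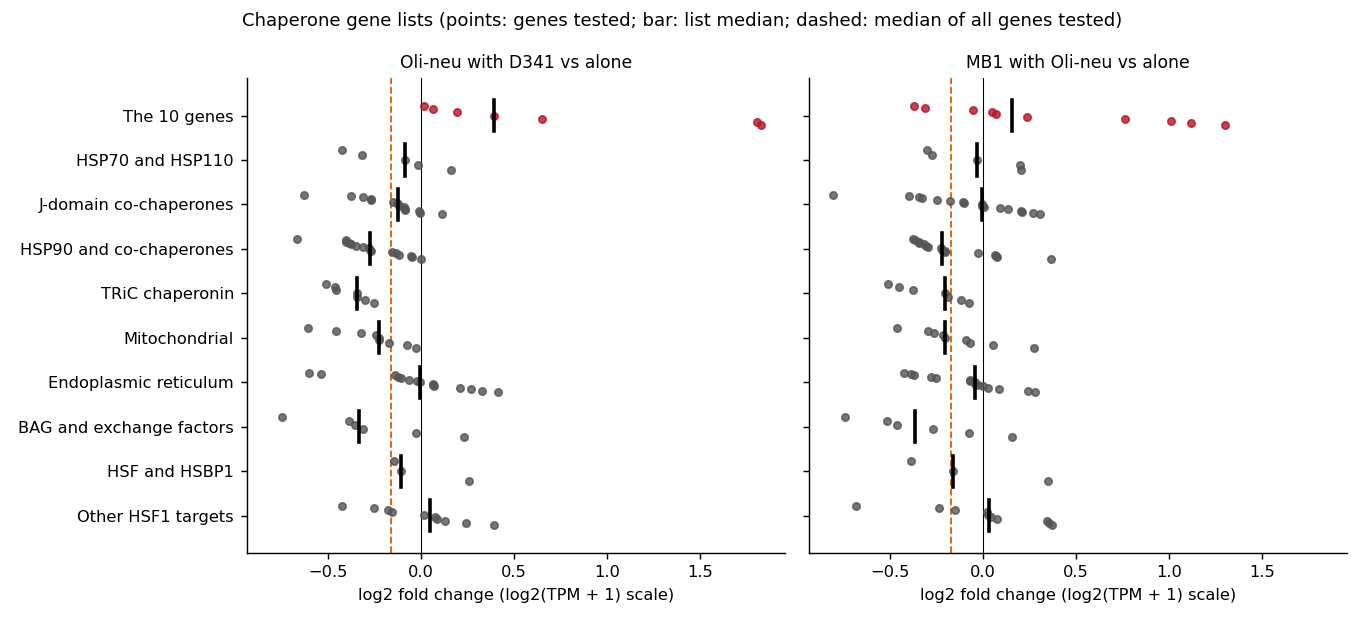
Log2 fold change on the log2(TPM + 1) scale of each tested gene, by list, in Oli-neu with D341 against Oli-neu alone (left) and in MB1 with Oli-neu against MB1 alone (right), with a bar at the list median and a dashed line at the median of all genes. The 7 and 10 chaperones tested have medians of 0.40 and 0.15, against -0.16 and -0.17 over all genes, and the TRiC list has a median of -0.34 on the left.

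Genes were last ranked by how closely they followed the HSP70 sum or Cryab over the 10 mouse libraries, after the mean of each line was subtracted, among genes with a mean of at least 5 TPM. This is a description, since the libraries of a condition share its line and partner and the same libraries chose the genes. Among the nearest to the HSP70 sum of 8077 genes were the histone gene Hist2h2aa2 (r = 0.917), the stress-induced growth arrest gene Gadd45b (0.916) and the transcription factor gene E4f1 (0.886). Hsph1 came at rank 32, with r = 0.780, and Dnajb1 and Hspa8 had r of 0.17 and 0.09. Gadd45b was at 64.3 ± 16.5 TPM in Oli-neu with D341, 44.1 ± 10.8 TPM in Oli-neu with MB1 and 31.6 ± 5.82 TPM in Oli-neu alone (SD, n = 2 each).

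Nearest to Cryab of 8078 genes were the ferritin heavy chain gene Fth1 (r = 0.972), the ribosomal protein genes Rpl9 (0.968) and Rps19 (0.949), the lipase gene Abhd6 (0.947) and Acadvl, of mitochondrial fatty acid oxidation (0.942). Fth1 was at 2174 ± 146 TPM in MB1 with Oli-neu and 1298 ± 15.2 TPM in MB1 alone (SD, n = 2 each). Of the other chaperones, Hspa1a had r = 0.538 with Cryab, Hspa8 -0.54 and Dnajb1 -0.54.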

How the data were processed

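RNA was poly(A)-selected and sequenced over 75 cycles from directional libraries, per the labels. The authors deposited TPM per gene, 1 table for each line; per the submitters' processing notes, FastQC 0.11.8, MultiQC 1.7, Salmon 0.14.1, DESeq2 1.22.2 and the build GRCm38 were named. TPM hold no counts, so depth and counting error are unknown. Symbols and positions came from GENCODE M21 of GRCm38 and promoters from RefSeq.

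The genes and lists were chosen with earlier results of these data known. Genes at 1 TPM or more in 2 libraries of a line were fitted by limma 3.58.1 (R 4.3.3) with a trended variance on a log2 scale after adding 1 TPM, all Oli-neu groups in 1 fit and MB1 in another. Tests were two-sided, with Benjamini-Hochberg adjustment over all genes and a threshold of 0.05. Errors are SD over 2 libraries for TPM and moderated SE for log2 fold changes, which understate the change of low genes. The procedure was run on simulated data with independent noise in each library, and no result here rests on it. In the lists, the 2 genes with the smallest p per list and comparison may be named, and a few of these are given. Likeness was taken over genes with symbols, without predicted genes and pseudogenes. Some genes that these rules would name are not reported here.

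Settings varied were the pseudocount (0.1 and 5 TPM), the filter (none, or 5 TPM), median-ratio scaling, limma without trend and robust, the 4 libraries compared alone, the replicate number as a block, and each library left out. Protein-coding genes rescaled alone and a crossed block were chosen after seeing the data.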

Additional observations from a re-analysis of the deposited data

Results flagged for a closer look

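The mean of Dnajb1 differed in opposite directions in the 2 lines, and neither difference passed the adjusted threshold. Both libraries of Oli-neu with D341 were above both of Oli-neu alone, with a log2 fold change of 0.20 (SE 0.10), and both libraries of MB1 with Oli-neu were below both of MB1 alone, with a log2 fold change of -0.31 (SE 0.16). The difference between the 2 was not tested, since the lines were fitted apart and the partner lines differ. Of 11182 genes tested in both lines, 155 (1.39%) showed the same pattern and 257 (2.30%) the reverse. In MB1 with Oli-neu against alone, 41.5% of all genes lay below without overlap, and the median of all genes was -0.17. In Oli-neu with D341 against alone, 7.12% of all genes lay above, and the median was -0.16. Over all settings the value for Dnajb1 ran between -0.42 and -0.14 in MB1, and between 0.13 and 0.37 in Oli-neu with D341 against alone. Groups of 2 libraries are too small to look for single outlying samples.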

How the results depend on the processing

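In none of the settings run did a chaperone pass the adjusted threshold in any of the 4 comparisons, and the HSP70 sum kept its direction in all 56 alternatives. Where Oli-neu with D341 is compared, the direction of the HSP70 sum rests on the values that chose the genes and supports nothing. Leaving out 1 library at a time, the log2 fold change of the sum ran between 1.65 and 2.21 in Oli-neu with D341 against alone. It ran between 0.13 and 0.70 in Oli-neu with MB1 against alone, and between 1.24 and 1.80 between the 2 co-cultures. For MB1 with Oli-neu against alone it ran between 0.41 and 1.47. In MB1 the lowest value came without library 1 of MB1 alone, and the highest without library 2 of MB1 alone. Without library 1 of MB1 alone 61 genes passed higher and 51 lower, none of the 10 chaperones among them, against at most 3 and 7 in the other settings of that comparison. Cryab in MB1 ran between 1.00 and 1.31 and Hspb1 between 0.83 and 1.63 over all settings. Without 1 library, Cryab ran between 0.16 and 0.64 in Oli-neu with D341 against alone, between 0.06 and 0.54 in Oli-neu with MB1 against alone and between -0.12 and 0.32 between the 2 co-cultures, and Hsp90aa1 ran between -0.28 and 0.32 in Oli-neu with D341 against alone. Of the single genes, 15 values moved by more than the spread between libraries and 417 did not. With the replicate number as a block, 0 chaperones passed in each comparison. The labels give these numbers no shared day or batch. Same-numbered libraries deviated together in Oli-neu (r from 0.593 to 0.618 across genes) and not in MB1 (r = -0.115), where exchanging the numbers also gave 0 calls. Depth is unknown, so no limit of detection is given for Hspb1, Hspb8 and Bag3 in Oli-neu.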
